A study of Mus musculus with 6 samples.

Results

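The calmodulin and CaM kinase genes described here are Calm2 and Calm3, which encode calmodulin, Camk2a, Camk2b, Camk2d and Camk2g, which encode the subunits of Ca2+/calmodulin-dependent protein kinase II (CaMKII), Camkk1 and Camkk2, which encode the CaMK kinases, and Camk4, which encodes CaMKIV. They are 9 of the 54838 genes counted by RNAseq, chosen by name. All 9 had enough counts to be tested, as had 19087 genes in all. RNA was isolated from the hippocampi of 3 wild-type and 3 FVB/NJ-Tg(ORAI1)Ibd females aged 7 months, and each library came from 1 animal. The transgenic line carries a human ORAI1 coding sequence in a modified mouse Thy1.2 expression cassette, which drives expression in neurons. The labels do not say whether the females were littermates.

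Calmodulin is a small Ca2+ sensor that binds Ca2+ at its EF hands and then wraps around a helix in its target proteins. CaMKII is a holoenzyme of many subunits that is concentrated at excitatory synapses of the hippocampus. It is switched on by Ca2+/calmodulin and keeps part of its activity when neighbouring subunits phosphorylate each other, which makes it a central enzyme of long-term potentiation. In a second arm, Ca2+/calmodulin activates the CaMK kinases, which phosphorylate and activate CaMKI and the nuclear kinase CaMKIV, and CaMKIV phosphorylates the transcription factor CREB. ORAI1 is a pore-forming subunit of store-operated Ca2+ channels, one of the routes by which Ca2+ enters cells. The genes described here encode some of the proteins that read a Ca2+ signal.

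Calm2 and Calm3 make the same protein from different coding sequences, which is why reads of one can be told from those of the other. Their coding sequences are both 450 bases long and differ at 78 bases, an identity of 82.7%, and their 149 translated residues differ at 0 positions. The stretch that encodes the first Ca2+-binding loop, bases 49 to 108 of the coding sequence in GENCODE M21 transcripts of GRCm38, is given 5′ to 3′ with the 11 bases that differ in capitals.
Calm2: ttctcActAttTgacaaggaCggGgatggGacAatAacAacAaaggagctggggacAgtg
Calm3: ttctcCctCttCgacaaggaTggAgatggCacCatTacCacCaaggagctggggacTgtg

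The genes of the CaMKII subunits are alike in the same way. The stretch of 72 bases that encodes the autophosphorylation threonine and the start of the calmodulin-binding segment is shown for 3 of the 4 subunits, with the 27 bases that are not the same in all 3 in capitals. The threonine is residue 287 in the Camk2b and Camk2d transcripts used and residue 285 in that of Camk2g. Of the 24 residues encoded here, 2 are not the same in all 3 proteins.
Camk2b: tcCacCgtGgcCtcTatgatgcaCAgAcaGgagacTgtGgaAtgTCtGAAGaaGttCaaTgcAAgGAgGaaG
Camk2d: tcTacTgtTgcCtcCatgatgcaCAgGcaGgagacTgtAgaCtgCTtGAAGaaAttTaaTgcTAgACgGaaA
Camk2g: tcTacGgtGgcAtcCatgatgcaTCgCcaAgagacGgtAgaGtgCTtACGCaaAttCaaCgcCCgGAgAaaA

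How far reads could be shared with other genes was looked up in the transcripts with windows of 76 bases, the length of a read. For 7 of the 9 genes 0 windows occurred in a transcript of another gene. For Calm2 42 of 1527 windows (2.75%) did, mainly in the processed copies Gm7308 and Gm15720, and for Calm3 27 of 2488 (1.09%) did, mainly in Gm5881. Small genes that overlap members had few counts. The microRNA genes Mir7220 and Mir6982 on the strand of Camk2a had 22 to 100 counts each, and an antisense gene opposite Camk4, 2310026I22Rik, had 4 to 20.

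In the libraries 37710188 to 52497799 fragments were counted on genes in wild-type and 37414241 to 47027279 in transgenic females. Orai1, the mouse gene to which fragments of the transgene can align, had 7.16 to 8.08 CPM (counts normalized to the TMM-scaled library size) in wild-type and 313 to 331 in transgenic libraries, in which all values lay above all wild-type values. Thy1 had 621 to 675 and 3572 to 4369 CPM, and how many of these fragments came from the cassette was not tested. The label hippocampus was checked against neuronal markers, and Slc17a7, the vesicular glutamate transporter of excitatory neurons, was at 1167 to 1201 CPM in wild-type and 1361 to 1458 CPM in transgenic females. All 15 genes of a list for the choroid plexus epithelium, the tissue of the adjoining ventricle, were lower in transgenic females with an adjusted p under 0.05, and their summed level ran from 2418 to 4373 CPM in wild-type mice and from 254 to 481 CPM in transgenic ones. None of the 15 was at 0. Of the other marker lists, 2 of 8 genes for excitatory neurons and 1 of 5 for endothelial cells were higher, 1 of 6 for interneurons was lower, and 0 genes passed the test in 7 lists for granule cells, CA1 and CA3 pyramidal cells, thalamus, astrocytes, oligodendrocytes and microglia. In such tissue, fewer cells of a type and less RNA per cell cannot be told apart.

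The CaMK kinase arm held 2 genes that changed between genotypes, and the calmodulin and CaMKII genes did not pass the test. Camkk1 rose by 26.6% and Camk4 fell by 35.5% in transgenic females, which makes 1 of 9 members higher and 1 of 9 lower with an adjusted p under 0.05 in edgeR's quasi-likelihood test. Among all tested genes the same test called 7.10%, with 3.10% higher and 4.0% lower. At an unadjusted p under 0.05 there were 4 members, Camk4, Camkk1, Camk2b and Calm3, where 27.8% of all tested genes lay under this value. The groups did not overlap for 5 members, all transgenic values being above all wild-type values for Camk2b, Calm3 and Camkk1 and below them for Camk4 and Calm2, and the same held for 34.9% of all tested genes, 16.9% above and 17.9% below. The median log2 fold change of the 9 was 0.04, and that of all tested genes was -0.010.

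**Figure D1:**
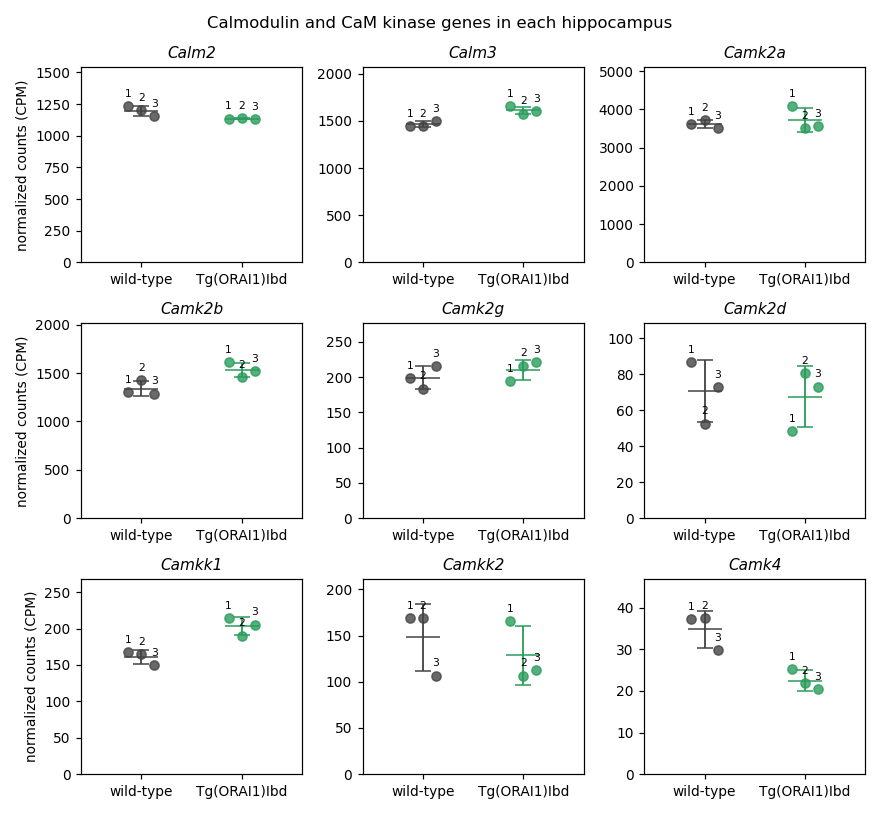
Normalized counts (CPM, vertical axes from 0) of the 9 genes in each hippocampus, with wild-type females in grey and Tg(ORAI1)Ibd females in green. Points are single mice with their replicate number, and the line and bars are the mean ± SD of 3 mice. The groups are apart for Camkk1 and Camk4, which passed the test, and also for Camk2b, Calm3 and Calm2, which did not. In Camkk2 and Camk2d the spread within a genotype is wider than the difference between genotypes.

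The level of each gene relative to the others was compared per length, as FPKM computed from the counts and the deposited exonic lengths. Calm2 came first with 787 to 840 FPKM in the wild-type libraries, followed by Calm3 with 597 to 620 and Camk2a with 471 to 499. These 3 genes took ranks 12, 19 and 28 among all tested genes by mean FPKM over the 6 libraries of both genotypes. Rank 13 was held by Thy1, with a mean of 214 FPKM in wild-type and 1348 FPKM in transgenic females. Camk2b followed with 141 to 156 FPKM in wild-type females, below Camk2a by more than the spread of either. Camkk1 had 40.1 to 44.9 FPKM and Camk2g 28.7 to 33.7. The last 3 were Camkk2 with 9.76 to 15.4 FPKM, Camk4 with 9.13 to 11.5 and Camk2d with 2.34 to 3.85. Camkk2 and Camk4 overlapped in wild-type females and did not differ beyond their spread, while every other pair of neighbours in this order was apart. In transgenic females the order by exonic length was the same, and all neighbours were apart, Camkk2 and Camk4 included, with lowest Camkk2 at 9.77 and highest Camk4 at 7.72 FPKM. The length of Camk2d used here is 22493 bases over 28 transcripts, and its longest protein-coding transcript has 5524, so its FPKM depends on the length chosen. With the longest protein-coding transcript as the length, an alternative chosen after seeing the data, part of the order changed. Camk2a, with 707 to 750 FPKM in wild-type females, then stood above Calm3, with 631 to 656, and Camk2g (49.6 to 58.3 FPKM) above Camkk1 (43.7 to 48.9). Camk4 and Camk2d then overlapped in wild-type females. In transgenic females this length left Camk2a (707 to 820 FPKM) and Calm3 (689 to 722) overlapping, as were Camkk1 (55.6 to 62.5) and Camk2g (52.5 to 59.7), and Camk2d (8.76 to 14.6) stood above Camk4 (7.5 to 9.26) by its mean and overlapped it.

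Calm2 (ENSMUSG00000036438, chr17:87433412-87446935, minus strand, GRCm38) had 1232, 1202 and 1155 CPM in the wild-type and 1136, 1143 and 1130 CPM in the transgenic libraries. All transgenic values were below all wild-type values, but by little. The log2 fold change was -0.07 ± 0.050 (SE, n = 3 against 3, edgeR's quasi-likelihood test, adjusted p = 0.38). Calm3 (ENSMUSG00000019370, chr7:16915379-16924114, minus strand) had 1450, 1446 and 1503 CPM in the wild-type and 1654, 1578 and 1602 CPM in the transgenic libraries. Here all transgenic values were above, and the log2 fold change was 0.14 ± 0.052 (SE) with an unadjusted p of 0.033 and an adjusted p of 0.141 in edgeR's test. These were the steadiest members. Their within-genotype SD on the log2 scale was 0.034 and 0.033, larger than that of 6.89% and 6.46% of the 11191 genes with a mean log2 CPM above 3.

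Since both genes encode 1 protein, their ratio within each library was taken, which does not depend on the library scaling. The log2 ratio of Calm2 to Calm3 FPKM was 0.49, 0.46 and 0.34 in wild-type and 0.18, 0.26 and 0.22 in transgenic females. Every transgenic ratio lay below every wild-type ratio, with means of 0.43 ± 0.076 and 0.22 ± 0.038 (SD, n = 3 each), a difference of -0.21 with an exact two-sided permutation p of 0.1, the smallest that 3 against 3 mice can give. The summed level of both genes ran from 2647 to 2682 CPM in wild-type mice and from 2721 to 2790 CPM in transgenic ones. The genes differ in the GC content of their transcripts, 42.7% in Calm2 and 58.3% in Calm3. With the trend of counts on GC content removed from each library through offsets, the log2 fold changes were 0.05 for Calm2 and 0.04 for Calm3, and their difference was 0.013.

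Camk2a (ENSMUSG00000024617, chr18:60925618-60988152, plus strand), the CaMKIIα gene of forebrain excitatory neurons, had the most counts of the 9, and 0.367% of all counts fell on it. It had 3621, 3727 and 3515 CPM in the wild-type and 4075, 3514 and 3560 CPM in the transgenic libraries. The groups overlapped, and only the first transgenic mouse was above the wild-type range. The log2 fold change was 0.04 ± 0.077 (SE, edgeR, adjusted p = 0.79). Without the first transgenic mouse it was -0.03, and with GC offsets it was -0.01, so no direction can be given for Camk2a. The 3 genes whose pattern over the 6 libraries was nearest to that of Camk2a, by the root mean square difference of centred log2 CPM among 10645 genes with a mean of at least 10 CPM, were Atp5h (0.0078), 2310061I04Rik (0.014) and Cplx1 (0.015), the last encoding the synaptic vesicle fusion protein complexin. The same measure gave Enah (0.010), Acot9 (0.011) and Sod2 (0.013) for Calm2.

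Camk2b (ENSMUSG00000057897, chr11:5969644-6066362, minus strand) encodes CaMKIIβ, the subunit that also binds actin filaments. It had 1305, 1424 and 1288 CPM in the wild-type and 1610, 1461 and 1524 CPM in the transgenic libraries. All transgenic values were above all wild-type values. The log2 fold change was 0.19 ± 0.065 (SE) with an unadjusted p of 0.019 and an adjusted p of 0.107 in edgeR's test. With GC offsets it was 0.14 with an adjusted p of 0.255, and it passed in 1 of 12 alternatives. By that one, DESeq2's Wald test, Camk2b and Calm3 passed as well, with adjusted p of 0.027 and 0.028, but that test called more of all genes, 1055 higher (6.54% of 16122 with an adjusted p) and 1175 lower, against 591 and 764 by edgeR.

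Camk2g (ENSMUSG00000021820, chr14:20734875-20794088, minus strand) encodes CaMKIIγ, a subunit found in many tissues. It had 199, 184 and 216 CPM in the wild-type and 194, 216 and 221 CPM in the transgenic libraries, and the groups overlapped. Its log2 fold change was 0.08 ± 0.074 (SE, edgeR, adjusted p = 0.536), and it was 0.04 without wild-type mouse 2, 0.14 without wild-type mouse 3 and 0.13 without transgenic mouse 1. Camk2d (ENSMUSG00000053819, chr3:126596302-126846326, plus strand) encodes CaMKIIδ, the main subunit of heart muscle, and had 86.6, 52.6 and 72.9 CPM in the wild-type and 48.4, 80.7 and 73.2 CPM in the transgenic libraries. Its values ran over the same range in both genotypes. The log2 fold change was -0.07 ± 0.22 (SE, edgeR, adjusted p = 0.87), and its sign turned with GC offsets (0.03), with gene length offsets (0.10) and without the first mouse of either genotype (0.12 in both fits).

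The mix of subunit transcripts within CaMKII was compared through ratios and shares within each library. With 3 against 3 mice an exact test of these cannot give a p below 0.1, so none could pass a threshold of 0.05, and the values are given as a description. The log2 ratio of Camk2a to Camk2b FPKM was 1.76, 1.68 and 1.74 in wild-type and 1.63, 1.56 and 1.51 in transgenic females. No transgenic mouse reached the lowest wild-type ratio, and the difference of the means was -0.16 (1.73 ± 0.043 and 1.57 ± 0.058, SD, n = 3 each, exact two-sided permutation p = 0.1). As a share of summed CaMKII FPKM, Camk2b took 21.6%, 22.7% and 21.8% in wild-type and 23.4%, 23.96% and 24.5% in transgenic females. Camk2a took 72.8% ± 0.31 and 70.9% ± 1.245 (SD, n = 3 each). For both shares the groups did not overlap and the exact permutation p was 0.1. Camk2g held 4.69% ± 0.50 and 4.72% ± 0.60 (exact p = 1.0, n = 3 each) and Camk2d 0.474% ± 0.122 and 0.433% ± 0.132 (exact p = 0.6, n = 3 each). Camk2a and Camk2b have a like GC content, 53.3% and 53.9%, and with GC offsets the difference of their log2 fold changes was -0.15. The summed CaMKII level was 666 ± 18.9 FPKM in wild-type and 702 ± 46.6 FPKM in transgenic females (SD, n = 3 each, exact p = 0.3), and this difference did not exceed the spread. With the ratio of Camkk2 to Camkk1 given further on, 8 ratios, shares and sums were tested, and the adjusted p (Benjamini-Hochberg over these 8 exact tests) was 0.2 for each of the 4 with an exact p of 0.1.

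**Figure D2:**
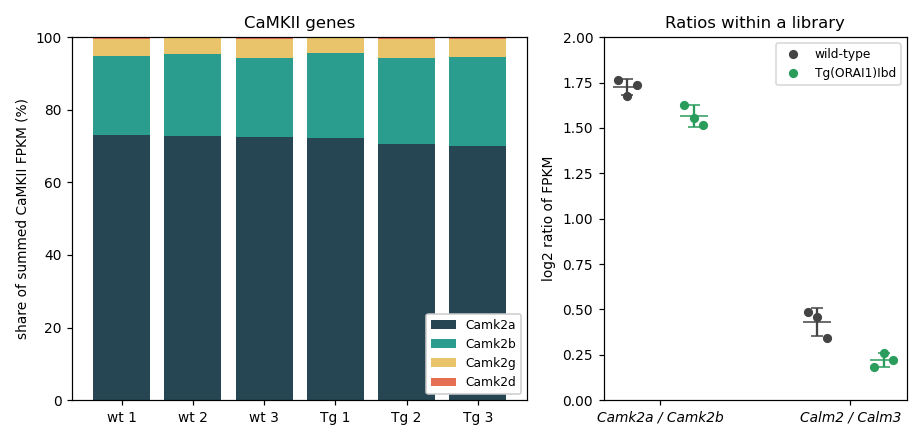
On the left, stacked bars from 0 to 100% show the share of summed CaMKII FPKM taken by each subunit gene in each mouse (wt, wild-type; Tg, Tg(ORAI1)Ibd). On the right, points show the log2 ratio of FPKM within each library, with the mean ± SD of 3 mice, and in both ratios every transgenic mouse lies below every wild-type mouse.

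Camkk1 (ENSMUSG00000020785, chr11:73019008-73042073, plus strand), which encodes CaMKKα, rose in transgenic females. It had 167, 164 and 150 CPM in the wild-type and 214, 190 and 205 CPM in the transgenic libraries. All transgenic mice were above all wild-type mice, and the means were 161 ± 9.54 and 203 ± 12.03 CPM (SD, n = 3 each). The log2 fold change was 0.34 ± 0.063 (SE) with an adjusted p of 0.0291 by edgeR. The call did not hold with GC offsets, where the log2 fold change was 0.27 and the adjusted p 0.0746. It was also lost without wild-type mouse 1, wild-type mouse 2 or transgenic mouse 3, with adjusted p of 0.114, 0.115 and 0.0958, while the log2 fold change stayed between 0.30 and 0.41 whichever mouse was left out. Of the 8 markers of excitatory neurons, Slc17a7 (log2 fold change 0.26, adjusted p = 0.0356) and Neurod2 (0.32, adjusted p = 0.0239) also rose, and the other 6 did not pass, with values from -0.30 to 0.02. Their summed level lay between 4276 and 4315 CPM in wild-type mice and between 4485 and 4666 CPM in transgenic ones, and its part in the values of Camkk1 and Camk2b was not tested.

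Camkk2 (ENSMUSG00000029471, chr5:122731170-122779409, minus strand), which encodes CaMKKβ, the kinase that also activates AMPK, showed another picture. It had 169, 169 and 107 CPM in the wild-type and 166, 107 and 113 CPM in the transgenic libraries. The values fell into a higher and a lower level, and each genotype held mice at both. Its log2 fold change was -0.20 ± 0.22 (SE, edgeR, adjusted p = 0.589). It ran from -0.43 without transgenic mouse 1 to -0.06 without transgenic mouse 2, with -0.39 without wild-type mouse 3 and -0.08 to -0.09 without any of the other 3, and it was -0.08 with gene length offsets. The log2 ratio of Camkk2 to Camkk1 FPKM was -1.54, -1.51 and -2.04 in wild-type and -1.92, -2.38 and -2.41 in transgenic females, so the groups overlapped, and the difference of -0.54 had an exact permutation p of 0.2 (n = 3 each).

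The 2 levels of Camkk2 were shared by other genes, looked at after its values were seen. Gfap, the intermediate filament gene of astrocytes, was low where Camkk2 was high, with 323 and 355 CPM in wild-type mice 1 and 2 and 386 CPM in transgenic mouse 1, against 836 CPM in wild-type mouse 3 and 922 and 840 CPM in transgenic mice 2 and 3. C1ql2, a gene of dentate granule cells, had 26.2, 24.7 and 33.8 CPM in the first set of mice and 52.3, 69.6 and 68.8 CPM in the second. Neither followed genotype. The genes nearest to Camkk2 by the measure used above were Fat4 (0.050), an atypical cadherin, Cyp4f15 (0.052) and Kcnf1 (0.084), a modulatory potassium channel subunit. Kcnf1 had 50.6, 43.8 and 49.8 CPM in the first set and 32.3, 33.2 and 33.8 CPM in the second. Camk2d did not follow this division, being high in wild-type mouse 1 and low in wild-type mouse 2. Camk4 had 37.4 and 37.5 CPM in wild-type mice 1 and 2 and 29.7 CPM in wild-type mouse 3. It had 25.2 CPM in transgenic mouse 1 and 21.9 and 20.4 CPM in transgenic mice 2 and 3. Within each genotype Camk4 was thus lower where Camkk2 was low. The part of this division in the fall of Camk4 was not tested. The within-genotype SD of Camkk2 and Camk2d on the log2 scale was 0.36 and 0.38, larger than that of 97.9% and 98.1% of the 11191 genes compared. The labels name no batch, dissection or estrous stage by which these mice could be grouped.

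**Figure D3:**
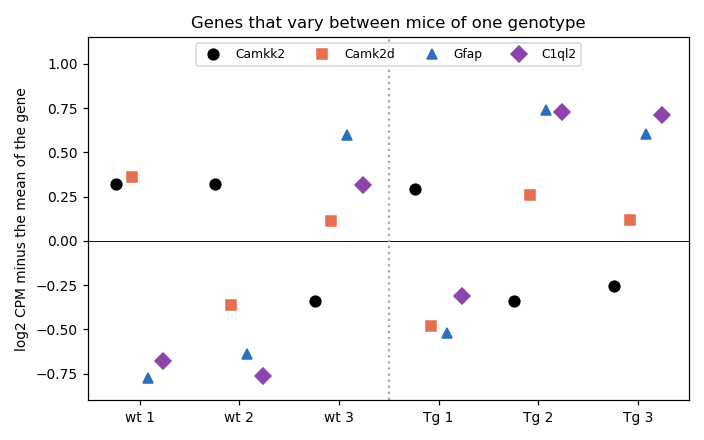
Log2 CPM of Camkk2, Camk2d, Gfap and C1ql2 in each mouse, minus the mean of the gene over the 6 libraries, with the symbols of a mouse set side by side and a dotted line between genotypes. Camkk2 is high in wild-type mice 1 and 2 and transgenic mouse 1, and Gfap and C1ql2 are low in those mice.

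Camk4 (ENSMUSG00000038128, chr18:32934931-33191228, plus strand), which encodes the CREB kinase CaMKIV, fell in transgenic females. It had 37.4, 37.5 and 29.7 CPM in the wild-type and 25.2, 21.9 and 20.4 CPM in the transgenic libraries, from 763 to 1955 counts. All transgenic mice were below all wild-type mice, and the means were 34.9 ± 4.42 and 22.5 ± 2.45 CPM (SD, n = 3 each). The log2 fold change was -0.63 ± 0.11 (SE) with an adjusted p of 0.0273 by edgeR. With GC offsets it was -0.58 with an adjusted p of 0.0497, close to the threshold. The call was lost without wild-type mouse 1 or 2 or transgenic mouse 2 or 3, with adjusted p of 0.128, 0.121, 0.0844 and 0.0963, and the log2 fold change stayed between -0.73 and -0.54 whichever mouse was left out. The same removals cut the calls among all genes to 11 higher and 66 lower, 13 and 81, 62 and 130, and 19 and 89, from 591 and 764. Interneuron marker Gad2, which encodes a glutamate decarboxylase, also fell, from 178 ± 20.98 to 124 ± 8.58 CPM (SD, n = 3 each, edgeR, adjusted p = 0.0272), and it was among the 3 genes nearest to Camk4 in pattern over the 6 libraries, with Lin7a, a synaptic scaffold gene, and Kcnh7, a potassium channel gene. These were looked up after the values of Camk4 were seen. The other 5 interneuron markers did not pass and their groups overlapped, with log2 fold changes of -0.28 for Gad1, -0.27 for Slc32a1, -0.10 for Sst, -0.01 for Vip and 0.09 for Pvalb. The 6 together had a summed level between 642 and 807 CPM in wild-type mice and between 550 and 694 CPM in transgenic ones, and their part in the fall of Camk4 was not tested.

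**Figure D4:**
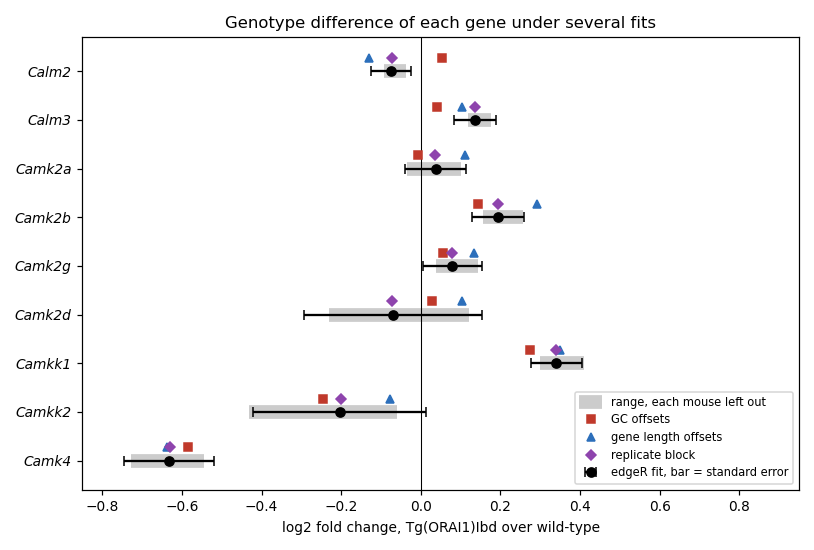
Log2 fold change of each gene between Tg(ORAI1)Ibd and wild-type hippocampi (horizontal axis). Black points with bars are the edgeR fit ± SE, grey bands run over the fits that omit 1 mouse, and coloured symbols are fits with GC offsets, gene length offsets or the replicate number as a block. Camkk1 stays above 0 and Camk4 below 0 in all of these fits, while Camk2a, Camk2d and Calm2 lie on both sides.

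Fold changes in these libraries followed the GC content of the transcripts, with a median log2 fold change of -0.20 in the lowest and 0.15 in the highest of 20 bins. Each member was therefore set beside the tested genes within 1 percentage point of its own GC content. The median log2 fold change of 1738 such genes was 0.09 for Camkk1, whose own was 0.34, and that of 2069 genes was -0.03 for Camk4, whose own was -0.63. Both lay outside the quartiles of the tested genes in their GC bin. By definition, as many genes of a bin lie outside its quartiles as between them, so this placement alone does not set a gene apart. For Camk2b the value of 0.19 stood beside a median of 0.07 over 1914 genes, and for Camkk2 the value of -0.20 beside 0.07 over 1946, and both were outside the quartiles of their bin as well. Calm3, with 0.14 beside 0.11, and Calm2, with -0.07 beside -0.11, were near the median of genes like them. Camk2a, with 0.04 beside 0.07, Camk2g, with 0.08 beside 0.05, and Camk2d, with -0.07 beside -0.10, were near it as well. These are descriptions, with no test of the difference.

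**Figure D5:**
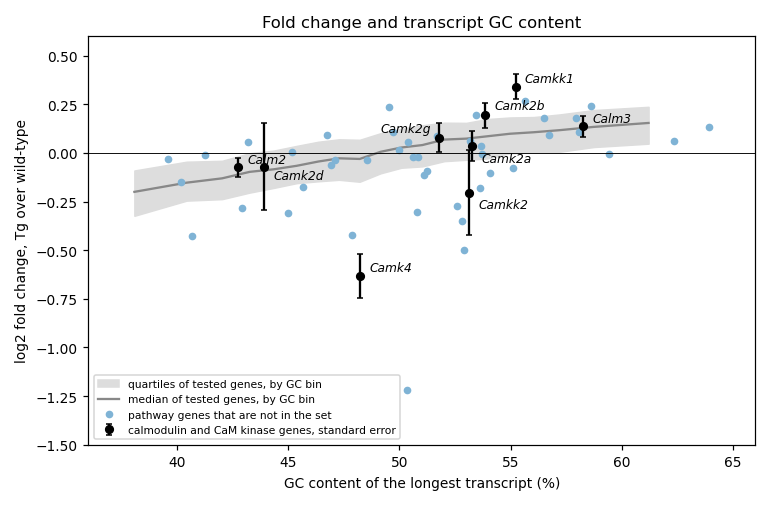
Log2 fold change between genotypes (vertical axis) against the GC content of the longest transcript in percent (horizontal axis). The grey line and band are the median and quartiles of tested genes with a mean log2 CPM above 1 in 20 bins of GC content, black points are the 9 genes ± SE, and blue points are the other 45 genes of the pathway. Calm2 and Calm3 sit near the grey line at opposite ends of the GC scale, and Camkk1, Camk4, Camkk2 and Camk2b lie outside the band. By definition, as many genes of a bin lie outside the band as in it.

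The other genes of calmodulin and CaM kinase signaling were taken from a list of 45, each with enough counts to be tested. In this list 1 was higher and 3 were lower with an adjusted p under 0.05, again beside 3.10% and 4.0% of all tested genes, and 41 did not pass. By sign alone 20 were higher and 25 lower, with a median log2 fold change of -0.011. The groups did not overlap for 15 of the 45, 8 of them higher and 7 lower in transgenic females, beside 34.9% of all tested genes.

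The kinases activated by CaMKK beside CaMKIV did not pass the test in 4 of 4 cases. Pnck, which encodes CaMKIβ, had a mean of 70.4 ± 5.23 CPM in wild-type females and of 84.9 ± 4.36 CPM in transgenic ones (SD, n = 3 each), with a log2 fold change of 0.27 and an adjusted p of 0.0539 in edgeR's test, just above the threshold, and its groups did not overlap. Camk1, Camk1d and Camk1g had log2 fold changes of 0.06, -0.06 and 0.04 and overlapped. AMPK, the other target of CaMKKβ, had 1 of its catalytic subunit genes called. The one not called, Prkaa1, had a log2 fold change of -0.15 (edgeR, adjusted p = 0.191) and groups that did not overlap. The median among genes of its GC content was -0.16. Prkaa2, which encodes AMPKα2, fell from 45.0 ± 3.08 to 33.4 ± 2.96 CPM (log2 fold change -0.43, adjusted p = 0.0291), beside a median of -0.16 among genes of like GC content, and with GC offsets it was -0.26 and did not pass (adjusted p = 0.0925). Prkaa2 passed in 2 of 6 fits that omit 1 mouse, those without wild-type mouse 3 or transgenic mouse 1, and in the other 4 the adjusted p ran from 0.0539 to 0.129. The other 7 genes in the list for the CREB arm did not pass, with log2 fold changes from -0.15 to 0.18. They were -0.03 for Creb1, 0.00 for Atf1, 0.05 for Crem and 0.09 for the coactivator gene Crebbp. Crtc1, a CREB coactivator gene named here after its value was seen, had the highest, 0.18, with an unadjusted p of 0.039, an adjusted p of 0.156 and groups that did not overlap.

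Among inhibitors and phosphatases of the CaM kinases, Ppm1e, a phosphatase that switches off CaM kinases, fell from 482 ± 34.7 to 389 ± 24.7 CPM (log2 fold change -0.31, adjusted p = 0.0450). It did not pass with GC offsets (-0.22, adjusted p = 0.19), gene length offsets (adjusted p = 0.102), DESeq2's size factors (0.0545) or a minimum of 10 counts per library (0.0512). It passed in 2 of 6 fits that omit 1 mouse, again those without wild-type mouse 3 or transgenic mouse 1, and had an adjusted p of 0.139 to 0.201 in the other 4. Its relative Ppm1f went the other way, with 88.2 ± 2.79 and 101 ± 3.78 CPM, a log2 fold change of 0.19 and an adjusted p of 0.0525 that missed the threshold. The CaMKII inhibitor genes Camk2n1 and Camk2n2 had log2 fold changes of 0.00 and 0.14, and the pseudokinase gene Camkv had 0.11, all with overlapping groups.

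Of the calmodulin reservoir proteins, which hold calmodulin at low Ca2+, 0 of 4 genes passed the test. Nrgn, which encodes neurogranin of dendritic spines, averaged 844 ± 93.6 CPM in wild-type females and 998 ± 37.8 CPM in transgenic ones, with an unadjusted p of 0.021 and an adjusted p of 0.113. Pcp4l1 had 76.5 ± 19.8 and 54.0 ± 2.74 CPM with an adjusted p of 0.0964. For both genes the groups did not overlap. Gap43 and Pcp4 had log2 fold changes of 0.11 and -0.04.

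Among other kinases under calmodulin, Phkg2, a catalytic subunit of phosphorylase kinase, rose from 49.0 ± 1.55 to 57.6 ± 2.40 CPM (log2 fold change 0.23, adjusted p = 0.0410). Mylk3, a myosin light chain kinase known from the heart, fell from 1.90 ± 0.655 to 0.805 ± 0.158 CPM on 26 to 100 counts per library (log2 fold change -1.22, adjusted p = 0.0464). With GC offsets the log2 fold changes were 0.25 and -1.22, hardly different, with adjusted p of 0.0564 and 0.0711 that no longer passed, and neither gene passed in any of 6 fits that omit 1 mouse. Both also failed with gene length offsets (adjusted p = 0.0618 and 0.0594), and Mylk3 with limma-voom (0.0568). Eef2k, Dapk1, Dapk2 and Mylk had log2 fold changes of -0.02, 0.06, -0.35 and -0.18 and did not pass. The cyclic nucleotide and nitric oxide enzymes that calmodulin regulates had 0 of 7 genes called. Pde1a, Pde1b and Pde1c had log2 fold changes of -0.01, -0.10 and -0.28, and Adcy1, a Ca2+-stimulated adenylyl cyclase, had 1133, 1033 and 843 CPM in wild-type mice and 1053, 739 and 697 CPM in transgenic ones, with its lowest values in the mice in which Camkk2 was low.

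The synaptic partners and substrates of CaMKII had 0 of 10 genes called, with log2 fold changes from -0.42 to 0.18 and a median of -0.03. Grin2b, the NMDA receptor subunit that docks CaMKII, had 619 ± 32.1 and 549 ± 46.2 CPM, a log2 fold change of -0.17, an unadjusted p of 0.047 and an adjusted p of 0.174. Grin1 and Gria1 had -0.01 and -0.04, and their groups overlapped.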

How the data were processed

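The authors trimmed reads with Trimmomatic, aligned them to mm10 with STAR and counted fragments per gene with featureCounts 1.5.0-p1 in its setting for read pairs on Ensembl 95, reversely stranded, primary alignments, mapping quality of at least 3. The labels call the run paired-end but give 1 × 76 bp as the read length, so whether both ends were read is not settled. The deposited counts were not normalized, and the deposited gene length (in bases, another unit) served for FPKM computed here. Genes were kept by filterByExpr (minimum count 10), libraries were scaled by TMM, and all genes were fitted with edgeR's quasi-likelihood test on 6 libraries without covariates, Benjamini-Hochberg adjusted with a threshold of 0.05. NOISeq, the test of the study, was not used here. Ratios and shares were compared by exact two-sided permutation tests. GC offsets are loess curves (span 0.5) of log2 counts on GC content, per library, with the GC content of 54723 genes from GENCODE M21 transcripts. R 4.3.3, edgeR 4.0.16, DESeq2 1.42.0 and limma 3.58.1 were used, and the script for the fits was tested on simulated data.

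Members and lists were chosen with earlier results of these data known. The genes named are the 9 members, Orai1 and Thy1, every listed pathway gene with an adjusted p under 0.05, up to 4 further genes per list in listed order, and the 3 genes nearest in pattern to Camk2a and Calm2. Others were chosen after their values were seen. Some genes are not reported here. Each animal is 1 library, so n is 3 mice per genotype. The p-values of edgeR set the genotype difference against the spread between mice, which is estimated with the help of all genes. Alternatives were other scalings, tests and filters, leaving out each mouse, a replicate block, and GC or gene length offsets.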

Additional observations from a re-analysis of the deposited data

How the results depend on the processing

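Over 12 alternatives of scaling, test, filter, block and offsets, Camk4 passed in 12 and Camkk1 in 10, failing with GC offsets (log2 fold change 0.27, adjusted p = 0.0746) with and without the block. With each mouse left out, Camk4 passed in 2 of 6 fits and Camkk1 in 3, so the members called ranged from 0 to 1 in each direction, and the other pathway genes called from 0 to 1 higher and from 0 to 3 lower. The members called higher were 3 by DESeq2's Wald test, which called 1055 of all genes higher and 1175 lower, and 0 with GC offsets (165 and 247 of all genes), alone or with the block (167 and 318). The other pathway genes called higher were 5 by DESeq2's Wald test, 2 with library totals, upper quartile scaling, no filter or at least 10 counts in every library, and 0 with GC offsets, alone or with the block, and with gene length offsets and the block. Those called lower were 5 by DESeq2's Wald test, 4 with no filter, 2 with DESeq2's size factors, limma-voom or at least 10 counts in every library, 1 with the replicate block (where Prkaa2, Mylk3 and the higher Phkg2 did not pass, with adjusted p of 0.0514, 0.0598 and 0.0751) or gene length offsets, and 0 with GC offsets, alone or with the block, and with gene length offsets and the block. The deviations of log2 CPM from the genotype mean had correlations of 0.399, -0.357 and 0.388 between same-numbered mice over 11191 genes. In 1 of 3 pairs a wild-type mouse correlated best with its own number. With 3 mice per genotype these values cannot settle whether the numbers pair the mice, and the labels do not say. With the block 263 genes were higher and 475 lower, where 591 and 764 were without it.

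The sign turned for Camk2a with GC offsets (-0.0059, and -0.0087 with the block), for Camk2d with GC offsets (0.029, and 0.033 with the block) and gene length offsets (0.10, and 0.098 with the block), and for Calm2 with GC offsets (0.054, and 0.053 with the block). Without single mice Camk2a ran from -0.033 to 0.10 and Camk2d from -0.23 to 0.12. The difference in the log2 ratio of Calm2 to Calm3 became 0.013 with GC offsets, an alternative chosen after seeing the data, and that of Camk2a to Camk2b was -0.15. With each mouse left out the difference in the share of Camk2d ran from -0.107 to 0.034 and that of Camk2g from -0.222 to 0.377 percentage points. The share of Camk2g differed by -0.011 percentage points with the length of the longest protein-coding transcript, also chosen after seeing the data. The cause was not tested. Camk4 had 763 counts or more in each library.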
